A study of Mus musculus with 6 samples.

Results

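The genes described here encode YAP and TAZ, the TEAD transcription factors they bind, and a small set of genes used as readouts of their activity, measured by RNA-seq in mouse osteoblast cultures with and without verapamil. They were chosen by name: Yap1, Wwtr1 (which encodes TAZ), Tead1, Tead2, Tead3, Tead4, Ccn1, Ccn2, Ankrd1 and Amotl2. All 10 were found by symbol among the 17491 genes of the deposited count table, and all 10 passed the low-count filter that left 13366 genes for testing. The study put verapamil, a drug that blocks calcium channels, against control in osteoblasts grown from wildtype mesenchymal stem cells of tibial and femoral marrow. There were 3 verapamil libraries and 3 control libraries, all taken on day 7 of osteogenic differentiation. That medium held ascorbic acid, β-glycerophosphate and dexamethasone. Strain, age, drug dose and hours of exposure are not stated in the labels, nor whether the replicates came from separate cultures. The p-values therefore reflect the spread among these libraries alone, which may be technical.

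YAP and TAZ are coactivators without a DNA-binding domain of their own. In the nucleus they bind TEAD factors, which recognise DNA, and in the cytoplasm they are held back once the Hippo kinases LATS1 and LATS2 have phosphorylated them. Cell shape, matrix stiffness and actin tension are known to shift this balance, and in the osteoblast lineage TAZ is known as a partner of Runx2. RNA levels report neither where YAP and TAZ lie in the cell nor their phosphorylation.

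Promoter sequence is shown for 6 members, Tead2 among them, because TEAD factors bind the core letters GGAATG. RefSeq windows on GRCm38.p6, running from 250 bases before to 50 bases after the annotated start, matched 7 of the 10 genes, all but Ccn2, Tead1 and Tead4. Searched on both strands, GGAATG was in at least 1 window of 6 of these 7 genes. Over all promoter windows it was in 14.7%, and 16.6% of genes had it in at least 1 window. The AP-1 motif TGANTCA, in 7.81% of all windows, and the CArG box bound by SRF, in 1.63%, were in none of the windows of these 7 genes. These are matches of letters only, with no binding data in the study. Capitals mark GGAATG or its reverse complement in the sequences below, each written 5′ to 3′ on the strand of its gene.
Yap1, chr9:8004547-8004846, minus strand: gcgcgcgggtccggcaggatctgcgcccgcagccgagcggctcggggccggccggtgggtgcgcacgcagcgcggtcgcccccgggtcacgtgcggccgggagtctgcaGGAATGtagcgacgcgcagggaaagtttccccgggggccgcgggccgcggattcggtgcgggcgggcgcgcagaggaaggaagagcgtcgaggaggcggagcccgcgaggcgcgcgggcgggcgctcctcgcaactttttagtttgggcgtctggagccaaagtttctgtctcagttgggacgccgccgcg
Wwtr1, chr3:57575861-57576160, minus strand: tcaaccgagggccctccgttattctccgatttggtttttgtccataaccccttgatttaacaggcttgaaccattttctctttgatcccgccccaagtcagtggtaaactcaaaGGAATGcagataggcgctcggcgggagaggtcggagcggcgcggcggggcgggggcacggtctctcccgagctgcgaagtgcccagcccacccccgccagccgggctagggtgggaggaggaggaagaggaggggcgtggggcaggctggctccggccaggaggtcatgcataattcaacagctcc
Ccn1, chr3:145649936-145650235, minus strand: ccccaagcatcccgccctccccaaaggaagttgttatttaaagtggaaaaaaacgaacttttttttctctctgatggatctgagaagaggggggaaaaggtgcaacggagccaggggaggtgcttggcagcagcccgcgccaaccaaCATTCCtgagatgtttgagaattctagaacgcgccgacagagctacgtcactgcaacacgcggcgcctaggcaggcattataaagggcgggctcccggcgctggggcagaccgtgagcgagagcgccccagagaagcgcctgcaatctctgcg
Ankrd1, chr19:36119795-36120094, minus strand: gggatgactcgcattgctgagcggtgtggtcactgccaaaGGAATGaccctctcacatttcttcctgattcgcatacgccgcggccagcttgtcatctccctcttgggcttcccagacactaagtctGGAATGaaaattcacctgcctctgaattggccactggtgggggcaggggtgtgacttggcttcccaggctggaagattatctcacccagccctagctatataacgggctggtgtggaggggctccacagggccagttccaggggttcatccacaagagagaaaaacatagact
Amotl2, chr9:102717554-102717853, plus strand: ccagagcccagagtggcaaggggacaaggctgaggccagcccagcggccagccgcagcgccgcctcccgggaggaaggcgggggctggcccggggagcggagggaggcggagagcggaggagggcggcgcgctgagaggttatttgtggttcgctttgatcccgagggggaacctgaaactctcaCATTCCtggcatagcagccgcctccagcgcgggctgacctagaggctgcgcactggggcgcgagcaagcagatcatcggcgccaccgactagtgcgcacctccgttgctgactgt
Tead2, chr7:45215542-45215841, plus strand: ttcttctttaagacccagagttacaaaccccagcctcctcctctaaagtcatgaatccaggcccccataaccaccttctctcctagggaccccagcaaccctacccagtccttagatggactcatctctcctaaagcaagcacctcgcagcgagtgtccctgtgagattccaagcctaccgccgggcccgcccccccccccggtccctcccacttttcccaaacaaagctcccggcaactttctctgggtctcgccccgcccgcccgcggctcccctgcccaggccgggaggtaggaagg
The motif began 141 bases before the start in Yap1, 136 in Wwtr1, 103 in Ccn1 and 65 in Amotl2. Another Wwtr1 window, not printed, overlaps the printed one and held the same GGAATG, 170 bases before its own start. Tead3, also not printed, had 3 windows, with 0, 3 and 1 matches. Ankrd1 held it at 210 and at 123 bases before its start. The Tead2 window held none.

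Verapamil cultures held less RNA for most of these genes than control cultures. By the quasi-likelihood test of edgeR, adjusted over all 13366 genes after Benjamini and Hochberg, 8 of the 10 fell, none rose, and Tead2 and Ankrd1 did not pass at adjusted p under 0.05. Ccn2 fell most, to 40.3% of its control level on the fitted scale, and the falls of Yap1, Tead1, Tead3 and Amotl2 were to between 72.2% and 75.8%. Over all genes tested, 16.3% fell and 15.4% rose (31.7% in either direction). The median log2 fold change of the 10 genes was -0.52, and that of all genes tested was 0.01. In the same 8 genes every verapamil library lay below every control library, which was so for 24.4% of all genes tested (49.6% did not overlap in either direction). The count of 8 was 4, 6 and 5 without verapamil replicates 1, 2 and 3, and 7, 8 and 9 without control replicates 1, 2 and 3. Without verapamil replicates 1, 2 and 3, the genes lower over the whole table numbered 1222, 1226 and 1393, against 2180 with all libraries, so fewer calls were made throughout. Of all genes called, 48.5% were higher, against 63.7% under scaling by library totals alone.

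**Figure D1:**
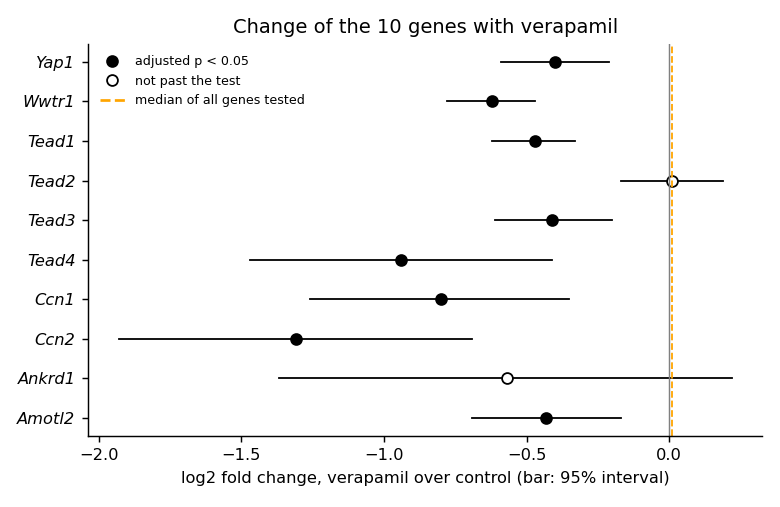
Log2 fold changes of verapamil over control for the 10 genes, with 95% intervals from the fit across all genes, on 3 libraries a group. Filled points passed the test and open points did not; 8 intervals lie below 0, and those of Tead2 and Ankrd1 include it.

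Library totals ran from 18.2 M to 21.7 M reads, and between 15757 and 15962 genes were detected per library. Control libraries varied more than verapamil libraries, with a biological coefficient of variation of 4.45% in the verapamil group and 12.4% in the control group. Markers of other cells and states moved with the drug. Summed macrophage markers (12 genes, 9 higher, 3 not past the test) were at 16878 to 18966 CPM in verapamil libraries, against 9438 to 11857 CPM in control libraries. The largest part of that sum was Lyz2, at a mean of 11197 CPM with verapamil and 5536 CPM in control. Csf1r, Mrc1 and Cd163 were the markers not past the test. Summed osteoblast markers, all 9 of them lower, were at 14867 to 17210 CPM with verapamil and 36550 to 46791 CPM in control, a sum carried mostly by Col1a1, Col1a2 and Ibsp. Of the others, the osteocyte-linked Dmp1 was at 2.82 to 4.54 CPM with verapamil and 56.6 to 96.7 CPM in control, and Ifitm5 was under 1 CPM in every library. Hypoxia response genes (11 of 12 lower, 1 not past the test) summed to 1550 to 1814 CPM with verapamil and to 2422 to 6249 CPM in control. Their part in the changes below was not tested, and in bulk RNA fewer cells of a type and less RNA per cell cannot be told apart.

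Levels are given as CPM, the TMM-normalised read count scaled to library size, and between genes as CPM per kilobase of the longest coding transcript. Per length, the secreted products Ccn2 and Ccn1 stood far above the rest, and the TEAD genes at the low end. In verapamil libraries the order was Ccn1 (177 ± 12.7 SD, n = 3), Ccn2 (175 ± 13.4), Amotl2 (37.9 ± 1.65), Yap1 (32.1 ± 1.55), Wwtr1 (17.2 ± 0.748), Tead1 (10.8 ± 0.332), Ankrd1 (10.6 ± 0.559), Tead3 (7.70 ± 0.435), Tead2 (4.66 ± 0.183) and Tead4 (0.809 ± 0.10 CPM per kilobase). Ccn1 and Ccn2, and Tead1 and Ankrd1, overlapped there between libraries, and the other neighbours in that order did not. In control libraries Ccn2 led at 434 ± 159, then Ccn1 at 309 ± 89.1, Amotl2 at 51.1 ± 8.87, Yap1 at 42.3 ± 4.49, Wwtr1 at 26.4 ± 1.87, Ankrd1 at 15.8 ± 7.68, Tead1 at 15.0 ± 1.02, Tead3 at 10.2 ± 1.06, Tead2 at 4.63 ± 0.214 and Tead4 at 1.56 ± 0.439 CPM per kilobase (SD, n = 3). Here Ccn2 overlapped Ccn1, Amotl2 overlapped Yap1, and Ankrd1 overlapped Tead1 and Tead3.

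**Figure D2:**
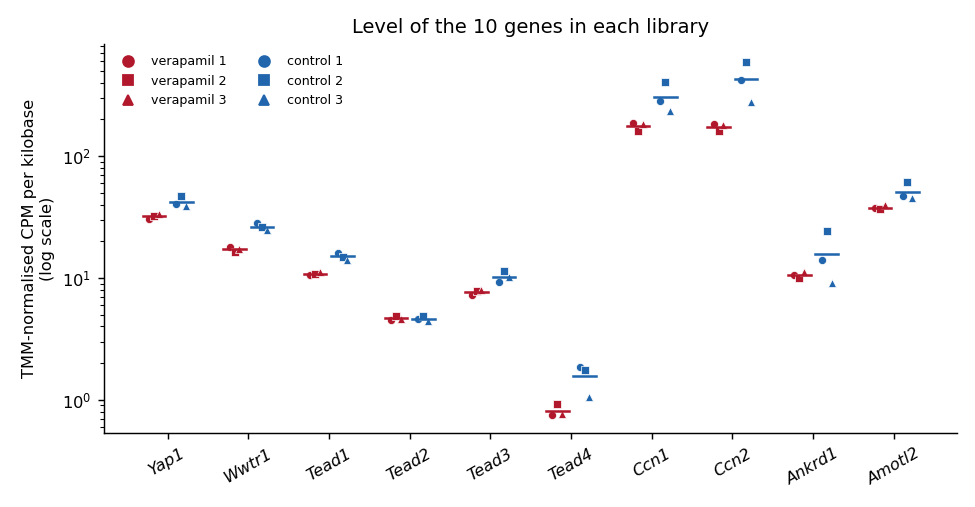
TMM-normalised CPM per kilobase of the 10 genes in each of the 6 libraries on a log axis, with verapamil to the left of control for each gene and a bar at the mean of 3 libraries. Control points are spread most for Ankrd1, from 9.07 to 24.1 CPM per kilobase, and verapamil points lie close together.

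Both coactivators fell. Yap1 (Entrez 22601, GRCm38 chromosome 9, 7931999 to 8004638) was at 127, 134 and 140.2 CPM in verapamil replicates 1, 2 and 3, against 170.03, 198 and 162 CPM in control replicates 1, 2 and 3. The groups did not overlap, and the log2 fold change was -0.40 ± 0.08 SE (edgeR adjusted p = 0.00785). Wwtr1, the gene for TAZ (Entrez 97064, chromosome 3, 57455644 to 57575910), was at 83.9, 76.9 and 81.1 CPM with verapamil and at 133, 123 and 116 CPM in control. All 3 treated libraries again lay below all 3 controls, and its log2 fold change of -0.62 ± 0.07 SE had the smallest adjusted p of the 10 genes (5.89e-04, edgeR). Both calls held without each library in turn, with adjusted p up to 0.0442 for Yap1 and up to 0.00639 for Wwtr1. Their summed level was 48.4, 48.4 and 50.9 CPM per kilobase with verapamil, against 69.1, 73.6 and 63.5 in control.

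Whether TAZ fell more than YAP was asked from the log2 ratio of Wwtr1 to Yap1 within each library. It was -0.77, -0.97 and -0.96 in verapamil replicates 1, 2 and 3, and -0.52, -0.85 and -0.66 in control replicates 1, 2 and 3. The groups overlapped, with a difference of -0.22 (two-sided exact permutation test p = 0.2, n = 3 a group, where 0.1 is the smallest p this design allows). This was 1 of 6 such comparisons of ratios or shares, and with 3 libraries a group none could reach 0.05. Over the 6, adjusted by Benjamini and Hochberg's method, the exact p-values were 0.3 for this ratio, the ratio of Ccn2 to Ccn1 and the shares of Tead2 and Tead4, 0.36 for Tead1 and 0.9 for Tead3.

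Of the 4 TEAD genes 3 fell, and Tead2 did not pass the test. Tead1 (Entrez 21676, chromosome 7, 112679356 to 112906784), the most abundant TEAD per length, was at 105, 108 and 111 CPM in verapamil replicates 1, 2 and 3, against 161, 148 and 141 CPM in control replicates 1, 2 and 3. The groups were apart, with a log2 fold change of -0.47 ± 0.06 SE (edgeR adjusted p = 0.00141). Tead3 (Entrez 21678, chromosome 17, 28331671 to 28350805) was at 19.99, 21.9 and 22.2 CPM with verapamil and at 25.6, 31.5 and 28.0 CPM in control, a change of -0.41 ± 0.09 SE on the log2 scale (edgeR adjusted p = 0.0112). Its groups did not overlap. The call was lost without verapamil replicate 1 (adjusted p = 0.0535). Tead4 (Entrez 21679, chromosome 6, 128227143 to 128300813), the scarcest, rested on 43.3 to 62.5 estimated reads per verapamil library and 70.8 to 121.9 per control library. Its level was 2.29, 2.84 and 2.34 CPM with verapamil, against 5.73, 5.45 and 3.26 CPM in control. Control replicate 3 came near the treated libraries but did not cross them, and the log2 fold change was -0.94 ± 0.23 SE (edgeR adjusted p = 0.0170). It missed the threshold with verapamil replicate 1 or 3 left out (adjusted p of 0.0680 and 0.0629) and with control replicate 1 left out (adjusted p of 0.0747).

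Tead2 (Entrez 21677, chromosome 7, 45215792 to 45233468) was at 15.3, 16.5 and 15.6 CPM in verapamil replicates 1, 2 and 3, and at 15.6, 16.5 and 15.1 CPM in control replicates 1, 2 and 3. These values interleave. Its log2 fold change was 0.01, with a 95% interval of -0.17 to 0.19 (edgeR adjusted p = 0.937), while the upper ends of the intervals of Tead1, Tead3 and Tead4 were -0.33, -0.20 and -0.41. The interval of Tead2 thus did not overlap those of the other 3 TEAD genes, though it came close to that of Tead3. The fold changes of the TEAD genes were not tested against each other.

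The make-up of the TEAD family was described by shares, none of which passed a test. The summed Tead level was 23.0, 24.5 and 24.6 CPM per kilobase in verapamil replicates 1, 2 and 3, against 31.8, 32.8 and 29.7 in control replicates 1, 2 and 3. Of that sum Tead2 made up 19.6%, 19.8% and 18.7% with verapamil and 14.4%, 14.8% and 14.9% in control, which did not overlap. The difference of 4.67 percentage points had p = 0.1 by a two-sided exact permutation test with n = 3 a group, the smallest p possible here. Tead1 held 45.2% ± 0.836 with verapamil and 47.8% ± 2.76 in control (SD, n = 3, exact permutation p = 0.3), a difference of -2.64 percentage points that was -1.19 without control replicate 1. The Tead3 share was 32.1% ± 0.644 with verapamil and 32.5% ± 3.06 in control (n = 3, exact permutation p = 0.9). Tead4 held 3.37% ± 0.357 with verapamil and 4.94% ± 1.21 in control (n = 3, exact permutation p = 0.2). Shares depend on the transcript lengths used, and without length scaling the Tead2 share differed by 2.79 percentage points.

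**Figure D3:**
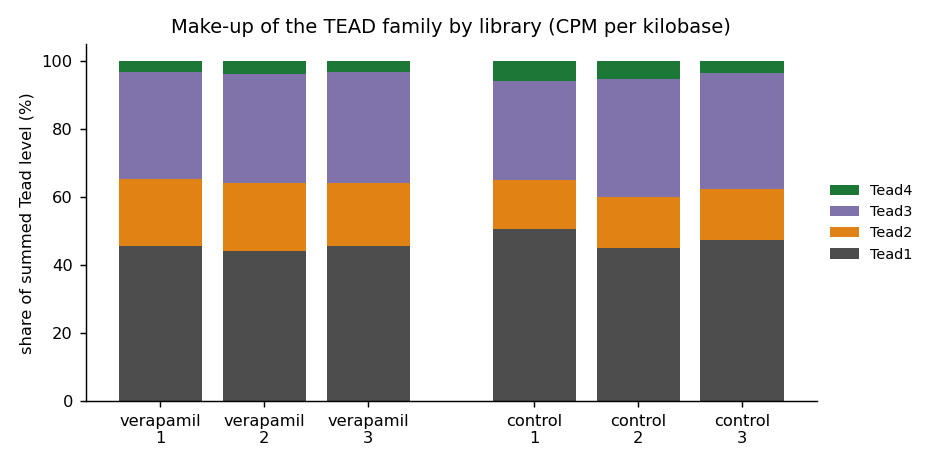
Share of each Tead gene in the summed Tead level of a library, in percent of CPM per kilobase, for 3 verapamil and 3 control libraries. The Tead2 segment is 18.7% to 19.8% with verapamil and 14.4% to 14.9% in control.

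Among the target genes, Ccn2 and Ccn1 moved most. Both encode secreted matricellular proteins of the CCN family, long used as readouts of YAP and TAZ activity, and Ccn2 also responds to TGF-β. Ccn2 (Entrez 14219, chromosome 10, 24595442 to 24598683) was at 459.8, 397 and 449 CPM in verapamil replicates 1, 2 and 3, against 1059, 1486 and 695 CPM in control replicates 1, 2 and 3. Each control library exceeded each treated one, although control replicate 2 held 2.14 times as much as control replicate 3. The log2 fold change was -1.31 ± 0.26 SE (edgeR adjusted p = 0.0107), and 1.74% of all genes tested had a lower one. The call held without each library in turn (adjusted p up to 0.0443), with log2 fold changes of -1.55 to -1.02.

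Ccn1 (Entrez 16007, chromosome 3, 145646971 to 145649985) was at 375, 328 and 368 CPM in verapamil replicates 1, 2 and 3, against 574, 823 and 473 CPM in control replicates 1, 2 and 3. The groups were apart, with the control libraries in the same order as for Ccn2. Its log2 fold change was -0.80 ± 0.19 SE (edgeR adjusted p = 0.0193). Without verapamil replicates 1, 2 or 3 it was not past the test (adjusted p = 0.0563, 0.0716 and 0.0565). Within libraries, the log2 ratio of Ccn2 to Ccn1 per length was -0.01, -0.02 and -0.02 with verapamil, against 0.58, 0.55 and 0.25 in control, so it did not overlap between the groups. The difference of -0.48 had p = 0.1 by the two-sided exact permutation test, the smallest p that n = 3 a group allows.

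Amotl2 encodes a protein of the angiomotin family, which binds YAP at cell junctions, and is itself a YAP target. The gene (Entrez 56332, chromosome 9, 102717091 to 102733418) was at 162, 158 and 172 CPM in verapamil replicates 1, 2 and 3, against 203, 265 and 195 CPM in control replicates 1, 2 and 3. The groups did not overlap, and the log2 fold change was -0.43 ± 0.11 SE (edgeR adjusted p = 0.0229). With verapamil replicate 1, 2 or 3 left out it missed the threshold (adjusted p of 0.0790, 0.0826 and 0.0530).

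Ankrd1 encodes an ankyrin repeat protein of heart and muscle that is induced by stretch and is a common YAP readout. It did not pass (Entrez 107765, chromosome 19, 36111965 to 36119844). Its level was 21.2, 20.3 and 22.5 CPM in verapamil replicates 1, 2 and 3, and 28.4, 48.8 and 18.3 CPM in control replicates 1, 2 and 3. Control replicate 3 lay below all 3 treated libraries and control replicate 2 far above them. The log2 fold change of -0.57 had a 95% interval of -1.37 to 0.22 (edgeR adjusted p = 0.237). Single control libraries moved it, to -0.85 without control replicate 3 (adjusted p = 0.0282) and to -0.14 without control replicate 2 (adjusted p = 0.618). Striated muscle markers were near 0 and none could be tested, their sum being 0.361 to 0.809 CPM with verapamil and 0.505 to 0.962 CPM in control.

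The control libraries varied along a common order in the target genes. Ccn2, Ccn1, Ankrd1 and Amotl2 were each highest in control replicate 2 and lowest in control replicate 3, and their coefficients of variation were 7.64%, 7.16%, 5.30% and 4.35% with verapamil, against 36.7%, 28.9%, 48.7% and 17.4% in control. The median over all genes tested was 5.10% with verapamil and 9.11% in control. Of the 10 genes, 7 were highest in control replicate 2 and 9 were lowest in control replicate 3, where 40.1% and 35.2% of all genes tested were. Wwtr1, Tead1 and Tead4 differed, being highest in control replicate 1, and Tead3 was lowest there. Several summed lists had the order of the target genes in control replicates 1, 2 and 3. Chondrocyte markers were at 336, 662 and 280 CPM there, and smooth muscle and pericyte markers at 1194, 1504 and 1149 CPM. Col2a1 made up most of the first sum, at 256, 573 and 186 CPM. Acta2 made up most of the second, at 1041, 1341 and 981 CPM. Sox9, Cnn1 and Des shared the order, and the other markers of both lists did not. The list of SRF genes described below was at 5313, 6141 and 5138 CPM. Hypoxia response genes had this order too. Their summed level was 1814, 1550 and 1734 CPM in verapamil replicates 1, 2 and 3, against 4068, 6249 and 2422 CPM in control replicates 1, 2 and 3. What part the state behind those markers had in the target genes was not tested. Without control replicate 2 the log2 fold changes were -1.02 for Ccn2, -0.56 for Ccn1, -0.29 for Amotl2 and -0.14 for Ankrd1. Ccn2, Ccn1 and Amotl2 stayed past the test there (edgeR adjusted p = 0.0181, 0.00194 and 0.00219), and Ankrd1 did not pass. The summed hypoxia level was higher in control replicates 1 and 3 than in any verapamil library.

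**Figure D4:**
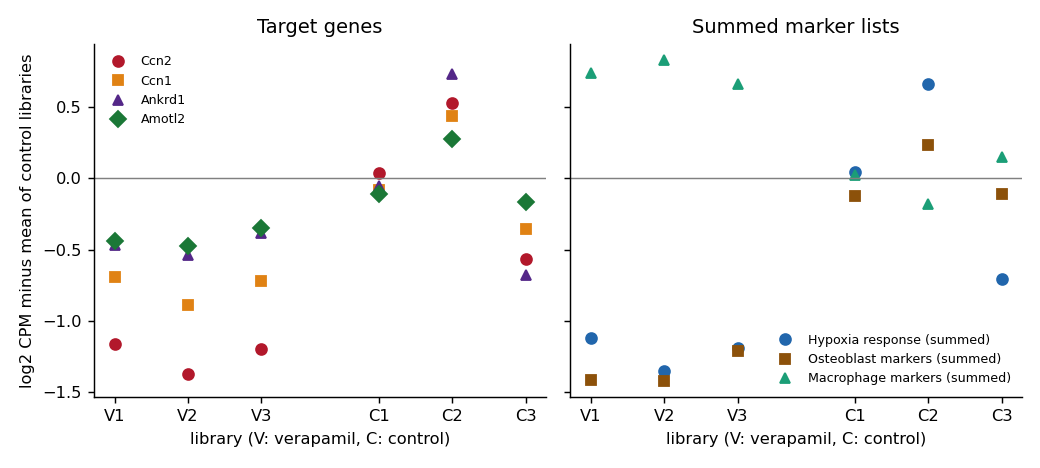
Log2 CPM of 4 target genes (left) and of summed marker lists (right) in each library, less the mean of the 3 control libraries. Target genes and the summed hypoxia response genes and osteoblast markers peak in control replicate 2. Of the osteoblast markers only Col1a1 and Col1a2 were highest there, and the others were lowest there. Summed macrophage markers lie higher in all 3 verapamil libraries, at 16878 to 18966 CPM.

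The genes with the most similar profiles were sought by Pearson's r of log2 CPM over the 6 libraries. The search covered the 10567 genes that averaged 5 CPM or more, with predicted and clone-type symbols left out. As the libraries form 2 groups, these r values describe likeness only. Nearest to Ccn2 were Bnip3, a mitochondrial protein gene induced by low oxygen (r = 0.9995), Fam193a (r = 0.9994) and the collagen prolyl hydroxylase gene P4ha1 (r = 0.9994). The list of hypoxia response genes holds both Bnip3 and P4ha1. Bnip3 was at 83.8, 70.3 and 78.4 CPM in verapamil replicates 1, 2 and 3, against 298, 504 and 163 CPM in control replicates 1, 2 and 3. Nearest to Ccn1 were Mettl9 (r = 0.999), the collagen receptor integrin gene Itga11 (r = 0.9989) and the glycogen synthase gene Gys1 (r = 0.9987). Amotl2 had Map7d1 (r = 0.9992), Chd4 (r = 0.999) and Tnk2 (r = 0.9984) beside it, and Ankrd1 had Anxa5 (r = 0.9986), Syce2 (r = 0.9955) and Ntan1 (r = 0.9902).

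Other genes of the pathway were read from lists of regulators and targets, 75 tested genes when each is counted once. Of these 34 fell, 5 rose and 36 did not pass, with a median log2 fold change of -0.25 beside 0.01 over all genes tested. The counts of each list stand beside the shares of all genes tested, 16.3% lower and 15.4% higher. The core kinases and adaptors of Hippo, which restrain YAP and TAZ, were mixed, with 3 of 8 lower, 1 higher, 4 not past the test and a median of -0.03. Lats1, the kinase gene, was at 73.6, 75.1 and 73.3 CPM with verapamil, against 99.4, 100.2 and 100.04 CPM in control (-0.43 ± 0.05 SE, edgeR adjusted p = 6.25e-04). Its paralog Lats2, which is also a YAP target, fell by 0.27 on the log2 scale, and Stk4, the MST kinase gene that is also abundant in blood cells, rose by 0.41. The scaffold gene Sav1 fell by 0.24, a call lost without verapamil replicates 1, 2 or 3 (adjusted p up to 0.0762).

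Upstream of LATS, 7 of 19 kinases, scaffolds and cadherins fell, 2 rose and 10 did not pass, with a median of -0.19, where 16.3% of all genes tested fell and 15.4% rose. The count lower was 2, 2 and 3 without verapamil replicates 1, 2 and 3, 2 without control replicate 1 and 11 without control replicate 2. The count higher was 0 without verapamil replicates 1 or 2 and 1 without control replicate 1. Tnik, a kinase gene, fell to 7.39 ± 0.840 CPM with verapamil, against 16.1 ± 2.15 CPM in control (SD, n = 3), and Wwc2, which encodes a KIBRA-family scaffold, fell by 0.36 on the log2 scale. Rassf1 and Frmd6 were at -0.55 and -0.40, and neither passed without control replicate 1 or any 1 verapamil library (adjusted p = 0.0717 to 0.132).

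Genes for junction proteins that bind YAP, TAZ or LATS were lower in 6 of 8 cases, with none higher, 2 not past the test and a median of -0.33. Tjp1, for the tight junction protein ZO-1, fell to 60.4 ± 1.58 CPM with verapamil, against 103 ± 17.6 CPM in control (SD, n = 3, log2 fold change -0.77 ± 0.12 SE, edgeR adjusted p = 0.00264). The LIM protein gene Wtip fell by 0.55 and the phosphatase gene Ptpn14 by 0.38. Ajuba was at -0.75 and missed the threshold when verapamil replicate 1 or 2 was left out (adjusted p of 0.0525 to 0.0574). Of the VGLL cofactors, which bind TEAD, Vgll3 fell to 152 ± 2.43 CPM with verapamil, against 195 ± 2.99 CPM in control, and Vgll4 did not pass.

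Further targets were lower more often than higher. On a list of conserved YAP and TAZ target genes, 10 of 18 fell, 1 rose and 7 did not pass, with a median of -0.42. Nt5e, for the surface antigen CD73, was at 13.2, 13.4 and 12.8 CPM with verapamil, against 40.7, 41.6 and 32.3 CPM in control (-1.54 ± 0.10 SE, edgeR adjusted p = 1.34e-04). Dock5 (-0.87), for a Rac exchange factor, the matrix protein gene Ccdc80 (-0.74) and Igfbp3 (-0.61), for a binding protein of insulin-like growth factors, fell too. The 1 gene that rose, Crim1 (0.24), was named after its value was seen, and no gene of the list rose without verapamil replicates 1 or 2. Myof, Nuak2 and Gadd45a, named likewise, had log2 fold changes of 0.04, 0.00 and 0.19 and did not pass.

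Of 8 further reported targets tested, 4 fell, 1 rose and 3 did not pass, with a median of -0.38. Thbs1, for the matricellular protein thrombospondin, was at 3953, 3771 and 3942 CPM with verapamil, against 7780.2, 8806 and 6523 CPM in control (-0.99 ± 0.12 SE, edgeR adjusted p = 9.85e-04). Birc5, for the mitotic protein survivin, was higher at 0.54, a call that needed control replicate 1 and all 3 verapamil libraries (adjusted p of 0.0586 to 0.0841 without any of these). Areg was at or near 0 and was not tested.

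Relatives of the members were read next. Among the 4 other CCN genes 1, the Wnt-induced Ccn4, fell, to 86.1 ± 0.532 CPM with verapamil, against 142 ± 24.5 CPM in control (-0.72 ± 0.11 SE, n = 3, edgeR adjusted p = 0.00312). Ccn5 was at 458 ± 27.1 CPM with verapamil and 517 ± 34.8 CPM in control. Ccn3 was at 118 ± 9.40 CPM with verapamil and 108 ± 25.6 CPM in control, and neither passed. Of the muscle relatives of Ankrd1, Ankrd23 was at 1.36 ± 0.0891 CPM with verapamil and 1.70 ± 0.346 CPM in control, and Ankrd2 was at 0 in 2 of 3 libraries of each group. SRF and its MRTF partners form the other main actin-responsive pathway, and 5 of 10 of its genes fell, none rose and 5 did not pass, with a median of -0.43. The focal adhesion gene Vcl fell to 425 ± 4.91 CPM with verapamil, against 687 ± 49.3 CPM in control, and Srf fell by 0.65 on the log2 scale. The MRTF genes Mrtfa and Mrtfb had log2 fold changes of 0.01 and -0.02 and did not pass. Flna (-0.44) lost its call without verapamil replicate 1 (adjusted p = 0.0509), and Acta2 (-0.42) without control replicate 1 or any 1 verapamil library (adjusted p up to 0.123). The count of 5 was 2, 3 and 3 without verapamil replicates 1, 2 and 3, and 3 without control replicate 1.

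**Figure D5:**
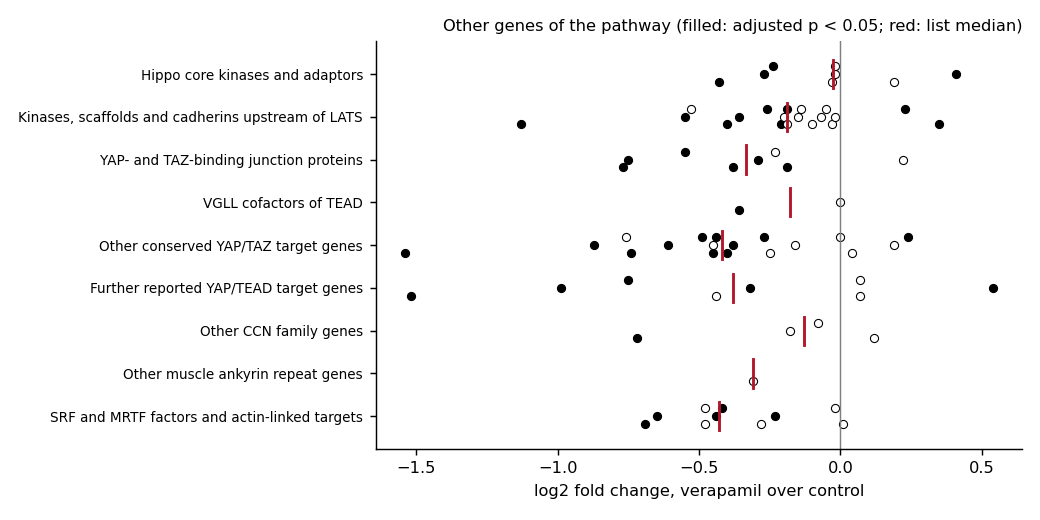
Log2 fold changes of verapamil over control for the other genes of the pathway, 1 point a gene, filled where adjusted p was under 0.05, with a red bar at each list's median. Medians run from -0.43 in the SRF list to -0.03 in the Hippo core, and 3 genes stand on 2 lists.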

How the data were processed

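Sequencing libraries came from total RNA by a SMARTER mRNA kit, per the labels' protocols. The table as deposited by the authors gives 1 estimated count for each gene in each library, without scaling for depth or length, and 67.7% of its values were not whole. GRCm38 (mm10) is the build in the submitters' processing notes; the sources used here do not give the aligner, the counter or its strand setting. Overlapping or antisense genes therefore cannot be told apart. Columns were matched to libraries through their labels.

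Estimated counts were rounded to whole numbers and filtered with filterByExpr (minimum count 10, minimum total 15), which took out 4125 genes. Verapamil was set against control with edgeR 4.0.16 in R 4.3.3 (TMM, robust quasi-likelihood, Benjamini-Hochberg over all genes, called at 0.05). Each SE was taken as |log2 fold change| divided by √F. Log2 CPM used a prior count of 2. Lengths are those of the longest GENCODE M21 coding transcript, and coordinates those of RefSeq.

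Members, lists, tests and alternatives were chosen with earlier results of these data known. Named genes were the 10 members, from each pathway list up to 4 called genes with the largest change (or 2 with the highest mean), and the 3 genes with the most similar profile for each target; others named were chosen after their values were seen. 1 gene that this rule names is not reported here. In 5 draws of simulated counts for the verapamil comparison on 13366 genes, recovery was 67.6% at a 1.5-fold change and 84.2% at a 2-fold change, with 8.83% of calls false. Each draw changed only 100 genes at each fold and gave both groups the same spread for a gene. In the data 4235 genes were called and the groups differed in spread, so these rates may not carry over. Alternatives were other scalings and filters, DESeq2 1.42.0, limma-voom (limma 3.58.1), the replicate number as a block, each library left out, and, added after the data were seen, limma-voom with a spread per group.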

Additional observations from a re-analysis of the deposited data

How the results depend on the processing

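Yap1, Wwtr1, Tead1 and Ccn2 kept direction and call under all 15 alternatives, with log2 fold changes of -0.46 to -0.32, -0.67 to -0.54, -0.52 to -0.39 and -1.55 to -1.02. Each other scaling, test and filter kept the count of 8 lower members, save the filter of 5 CPM in 3 libraries, which gave 7 because it took Tead4 out. Calls were lost when libraries were left out, a setting with fewer samples in which the count of lower members ranged from 4 to 9, genes lower over the table from 1222 to 2590 and genes higher from 1010 to 2452. Over those settings the log2 fold change ranged from -0.48 to -0.33 for Tead3, -1.17 to -0.79 for Tead4, -0.97 to -0.56 for Ccn1, -0.52 to -0.29 for Amotl2 and -0.85 to -0.14 for Ankrd1, and the count lower from 2 to 11 upstream of LATS and from 2 to 7 among SRF genes. The counts higher ranged from 0 to 2 upstream of LATS and among further targets, and from 0 to 1 among junction proteins, conserved targets and other CCN genes. Upstream of LATS the count lower was 4 with library totals alone and 4 with no low-count filter. Among named pathway genes Sav1 lost its edgeR call with library totals alone (adjusted p = 0.0554). Rassf1 lost its edgeR call with no low-count filter (adjusted p = 0.0725). Of the genes of similar profile, Fam193a and Map7d1 lost theirs with library totals alone and Gys1 with no low-count filter. Map7d1 also lost its call with upper-quartile scaling. The share of Tead3, at -0.46 percentage points and not past its test, was at 0.14 without length scaling and ran from -2.22 to 0.56 with a library left out. That of Tead1 ran from -3.94 to -1.19 and that of Tead4 from -2.26 to -1.12.

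The groups share replicate numbers and the design text speaks of pairs without saying what a pair shares, but deviations of same-numbered libraries did not go together (r = 0.00892, -0.167 and -0.127), so the numbers were not taken as pairs. With the replicate number as a block, 1364 genes were higher and 1589 lower, the members lower stayed at 8, the count upstream of LATS was 3 lower and 0 higher, no conserved target was higher (0) and 3 SRF genes were lower. Among named pathway genes Sav1, Rassf1 and Acta2 lost their calls under the block (edgeR adjusted p = 0.0644, 0.0895 and 0.0747), as did Mettl9, Fam193a and Map7d1 among the genes of similar profile (0.0546, 0.0657 and 0.106).

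Depth limits Tead4 most, with 43.3 to 121.9 estimated reads per library.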

Other observations

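Other cell type lists gave these values. Chondrocyte markers were lower in 4 of 4 tested genes, with summed levels of 103 to 144 CPM with verapamil and 279.6 to 662 CPM in control. Most of this sum was Col2a1. Endothelial markers summed to 45.7 to 46.5 CPM with verapamil and 52.8 to 55.5 CPM in control, where Pecam1 and Cdh5 were lower and Vwf was higher. Smooth muscle and pericyte markers, 3 of 6 lower and none higher, summed to 974 to 1059 CPM with verapamil and 1149 to 1504 CPM in control. Acta2 made up most of that sum, and Rgs5 (73.2 CPM with verapamil and 35.7 CPM in control) and Myh11 (5.43 CPM with verapamil and 3.87 CPM in control) lay higher in every verapamil library without passing the test. Adipocyte markers had 1 gene lower (Plin1) and 1 higher (Fabp4) of 4 tested, with sums of 553 to 709 CPM with verapamil and 402 to 569.8 CPM in control. Of neutrophil markers 1 gene was tested, S100a8 (log2 fold change 1.15), and the list summed to 1.21 to 1.59 CPM with verapamil and 0.597 to 1.08 CPM in control.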
